A study of Mus musculus with 24 samples.

Results

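Wild-type mouse oocytes cultured to the first meiotic division (MI) were compared with oocytes at the germinal vesicle stage (GV). A gene was a member of the comparison when its group mean reached 1 FPKM at MI or at GV, where FPKM are the authors' deposited values per kilobase of transcript, with no statement in the labels of how libraries were scaled to each other. This rule kept 9631 of the 23235 genes listed. Of these, 6937 reached 1 FPKM in both groups, 2638 in GV alone and 56 in MI alone. At the border of the rule, 215 members had a higher group mean from 1 to 1.1 FPKM, and 210 genes just outside it lay from 0.9 to under 1 FPKM.

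The 2 WT MI libraries came from oocytes cultured for 8 h, and the 2 WT GV libraries from oocytes collected 48 h after priming with PMSG, a gonadotropin. All animals had the C57BL/6 background and were 21 days old. The same MI and GV stages of Cnot6l-/- mice, and of mice whose libraries were labelled Btg4-/-, served for comparison, with 2 libraries in each of these 4 groups. In the deposited table MI libraries carry the numbers 2 and 3 and GV libraries the numbers 1 and 2, and values are given in that order. How either allele was made is not described in the labels, which also give 100 oocytes per library in the extraction protocol and 2 in the text of the series. The culture protocol mentions the MEK inhibitor U0126 for some experiments, but no library is labelled with it. The labels do not say that replicates came from separate animals, so the p-values speak of the spread among libraries alone. Except where the fit is said to hold fewer libraries, that spread was estimated over all 24 libraries of the series, which include later stages.

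A fully grown oocyte is almost silent in transcription and lives on mRNA stored during growth. When meiosis resumes the nuclear envelope breaks down, CDK1 and the MOS kinase pathway become active and the first spindle forms. In these hours part of the stored mRNA is deadenylated by the CCR4-NOT complex and degraded. Other stored mRNAs gain longer poly(A) tails and are translated, many of them through cytoplasmic polyadenylation elements (CPEs) in the 3′ UTR that bind CPEB1. CNOT6L is a catalytic subunit of CCR4-NOT, and BTG4 is an adaptor that brings the complex to mRNA. The libraries were primed on poly(A) with Smart-Seq2, so fewer molecules of an mRNA and shorter tails on it cannot be told apart, nor can less RNA per oocyte and fewer oocytes.

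Most transcripts were lower at MI than at GV, and the abundant ones were lower by more. Summed FPKM were 183621 and 134865 in the MI libraries, against 543648 and 451732 in the GV libraries. Both MI sums lay below both GV sums, and the MI mean of 159243 ± 34476 was 32.0% of the GV mean of 497690 ± 64994 (SD, n = 2 each; exact two-sided permutation p = 0.33, the smallest that 2 against 2 can give). Genes at 1 FPKM or more numbered 7247 and 6693 in the MI libraries, against 9841 and 9160 in the GV libraries. Genes at 100 FPKM or more numbered 290 and 200 at MI, against 1023 and 886 at GV. The 100 highest genes took 40.2% and 39.1% of the MI sums, against 31.15% and 31.05% of the GV sums. Read depth is unknown, since FPKM do not carry it.

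Over the members the median log2 change from GV to MI was -1.09, with quartiles of -1.88 and -0.55. Changes are on the log2(FPKM + 1) scale, which understates those of low genes, and were tested with limma at an adjusted p under 0.05. The test called 6618 members lower (68.7%) and 77 higher (0.8%), against 65.1% and 0.753% of all 10884 genes tested. Members present in GV alone had to be lower at MI by their choice, and the 56 present in MI alone had to be higher. The test called 2340 of the former lower and 20 of the latter higher. Among the 6937 members in both groups, 4278 were called lower and 57 higher. Both MI libraries lay below both GV libraries for 7645 members (79.4%) and above both for 271 (2.81%). These counts include the members present in 1 group alone, whose order the member rule favours. The same shares over all genes tested were not counted.

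The deposited values carry the fall of the sums, so every change was also read after median-ratio scaling, which sets the libraries to one level over 3677 genes (those above 1 FPKM in each of the 24 libraries). Scaling moved the median change by 0.88 to -0.21. Of the 9257 members tested after scaling, 2990 were lower (32.3%) and 1456 higher (15.7%). All 2990 were also called lower as deposited, and 77 of the 1456 were also called higher as deposited. A further 24 genes called lower as deposited were called higher after scaling. "Higher after scaling" therefore means only that a transcript fell less than the genes used for scaling, unless its values were also higher at MI as deposited, called or not.

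The size of the fall was spread over a wide range. Of the 4405 members at 10 FPKM or more in GV, 394 kept less than 5% of their GV mean and 542 kept 5 to 10%. A further 1122 kept 10 to 25%, 1199 kept 25 to 50% and 901 kept 50 to 100%. The remaining 247 were at or above their GV mean. The 394 genes that kept least held 12.6% of the summed GV FPKM and 1.20% of the summed MI FPKM of these 4405 genes. The 247 genes at or above their GV mean held 11.1% of the MI sum, against 2.58% of the GV sum. The median change was -0.85 over the 5170 members at 1 to 10 FPKM in GV, -1.60 over the 3440 at 10 to 100 FPKM and -2.31 over the 965 at 100 FPKM or more. The first of these is made smaller by the log2(FPKM + 1) scale. Without it, the median share of the GV mean that was left was 35.79%, 29.52% and 19.32% in the same order.

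**Figure D1:**
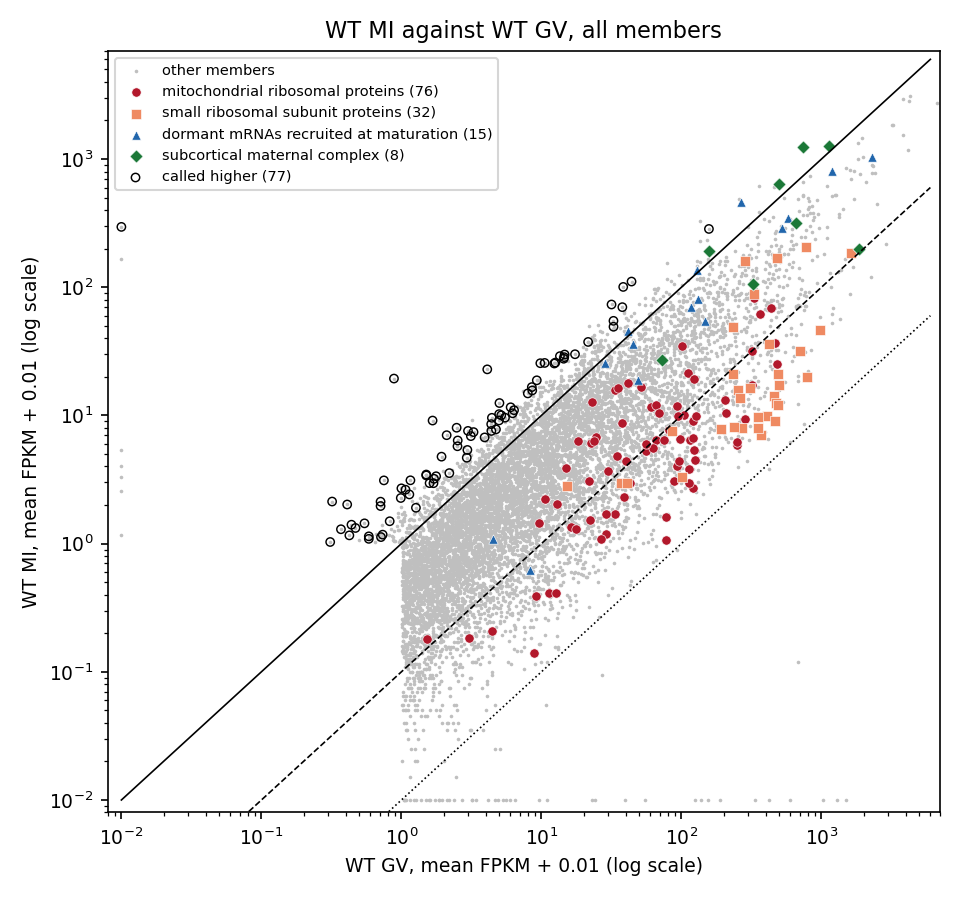
Each point is a member, placed by its mean FPKM in WT GV libraries (horizontal, log scale) and in WT MI libraries (vertical, log scale), with 0.01 added. The solid line marks equal values and the dashed and dotted lines mark 10% and 1% of the GV value; ribosomal protein genes lie far below equality, while mRNAs of the dormant list and of the subcortical maternal complex lie nearer to it, and open circles mark the 77 members called higher.

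The plot of MI against GV means shows small-subunit ribosomal protein genes mostly under the line for 10% of the GV value, below most members of similar abundance. Of the 77 members called higher, 20 were under 1 FPKM in GV, 41 lay from 1 to 10 FPKM, 15 from 10 to 100 FPKM and 1 at 100 FPKM or more.

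The deepest falls came from varied pathways. They were ranked among called members with a higher group mean of 20 FPKM or more and no overlap of the groups. Predicted loci and genes of small RNAs were left out. The 4 lowest changes in this ranking were those of Fcf1, Rpl36al, Zar1l and Psma6, of which Zar1l and Psma6 are described further on. Fcf1, which encodes a nucleolar factor of ribosomal RNA processing (chromosome 12, 86311880 to 86324253, plus strand, mm9), had 4.22 and 3.47 FPKM in the MI libraries, against 509 and 338 in the GV libraries. Rpl36al, a ribosomal protein gene, had 10.1 and 6.99 FPKM at MI, against 718 and 791 at GV. Timm17a, a channel subunit of mitochondrial protein import, had 12.3 and 12.3 FPKM at MI, against 684 and 667 at GV. None of these genes overlapped between the groups, and the changes were -6.43 ± 0.62 for Fcf1 (SE; limma adjusted p = 1.5e-07), -6.32 ± 0.30 for Rpl36al (adjusted p = 4e-10) and -5.66 ± 0.44 for Timm17a (adjusted p = 1.2e-08).

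Manf, which encodes a secreted factor of the endoplasmic reticulum stress response, had 1.06 and 0.72 FPKM at MI, against 103 and 83.6 at GV (log2 change -5.64 ± 0.32, adjusted p = 8e-10). The splicing factor gene Bud31 had 7.51 and 6.34 FPKM at MI, against 449.8 and 332 at GV (log2 change -5.61 ± 0.40, adjusted p = 5e-09). Sar1b, the GTPase of vesicle budding from the endoplasmic reticulum, had 2.73 and 2.16 FPKM at MI, against 172 and 112 at GV (log2 change -5.34 ± 0.51, adjusted p = 1.1e-07). The groups were apart for each of them, with no library at MI above 10 FPKM.

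Ribosomal protein genes fell nearly as a block. Of 32 members among small ribosomal subunit proteins 31 were lower and 0 higher, against 68.7% and 0.8% of all members. Their median change was -4.39 (-3.15 after scaling). All 50 members among large ribosomal subunit proteins were lower (median -3.93, -2.68 after scaling), as were all 76 mitochondrial ribosomal proteins (median -3.16, -2.02 after scaling). The summed FPKM of the small subunit list were 1409 and 1038 in the MI libraries, against 13143 and 12874 in the GV libraries, so that 9.40% of the GV mean was left. For all genes that share was 32.0%.

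Within the ribosome the members differed widely. Rps7 had 10.9 and 7.29 FPKM at MI, against 444 and 481 at GV (log2 change -5.54 ± 0.35, adjusted p = 1.7e-09). Rps2 stood at the other end, with 176 and 144 FPKM at MI, against 259 and 313 at GV, and did not pass (-0.83 ± 0.40, adjusted p = 0.075; 0.43 after scaling; adjusted p = 0.046 with the 4 WT libraries alone in the fit). Rpl41, which encodes the smallest ribosomal protein, kept 797 and 533 FPKM at MI, against 2177 and 1966 at GV (-1.67 ± 0.43, adjusted p = 0.0028), and did not pass after scaling (-0.40, adjusted p = 0.53). The groups of Rps2 and Rpl41 did not overlap either. Ribosomal protein genes have many processed copies in the genome, and reads may have been shared out among them, which leaves single values uncertain.

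Other genes for making proteins were less uniform. Aminoacyl-tRNA synthetases, which load amino acids onto tRNA, were lower in 15 of 19 cases (median -1.11, -0.24 after scaling, when 8 were lower and 3 higher), a median close to that of all members. Of 59 members among translation factors 47 were lower, against 68.7% of all members, and 0 higher (median -1.84, -0.75 after scaling, when 31 were lower and 7 higher, against 32.3% and 15.7% of all members). Eif3m, a subunit of the initiation factor that binds the small ribosomal subunit, had 7.60 and 5.22 FPKM at MI, against 331 and 272 at GV (-5.36 ± 0.38, adjusted p = 4.1e-09). Eif1ax, which encodes a factor of start codon scanning, had 22.35 and 18.2 FPKM at MI, against 669 and 701 at GV (-5.02 ± 0.50, adjusted p = 2e-07). Both genes were far apart between the groups. Eif2ak1, the heme-regulated kinase that lowers translation initiation, had 34.9 and 27.7 FPKM at MI, against 25.5 and 20.3 at GV, without passing the test (0.43 ± 0.28, adjusted p = 0.18; 1.63 and called higher after scaling).

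Nuclear genes for mitochondria fell at almost every step of respiration. Complex I members were lower in 35 of 37 cases (median -2.85, -1.59 after scaling) and members of complexes II to V in 38 of 40 (median -2.98, -1.73 after scaling). In mitochondrial protein import 17 of 19 members were lower (median -2.48, -1.32 after scaling), and in the citric acid cycle 21 of 22 (median -2.42, -1.31 after scaling). No member of these 4 lists was called higher as deposited. In each of the 4 lists the share called lower was above the 68.7% of all members.

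Ndufb7 of complex I had 3.17 and 2.65 FPKM at MI, against 163 and 157 at GV (-5.37 ± 0.23, adjusted p = 2.5e-10). Sdhd, the membrane anchor of succinate dehydrogenase, had 4.95 and 3.47 FPKM at MI, against 191 and 172 at GV (-5.14 ± 0.33, adjusted p = 1.9e-09). The ATP synthase subunit gene Atp5j2 had 23.5 and 21.2 FPKM at MI, against 913 and 690.5 at GV (-5.09 ± 0.42, adjusted p = 2.4e-08). These genes kept only a few percent of their GV level in both MI libraries, and Tomm22, the import receptor subunit, was alike with 5.98 and 5.24 FPKM at MI, against 197 and 190.0 at GV (-4.88 ± 0.30, adjusted p = 1.2e-09).

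Some metabolic genes stayed high. Cox6a1 of cytochrome c oxidase had 345 and 229 FPKM at MI, against 491 and 529 at GV, and did not pass (-0.86 ± 0.43, adjusted p = 0.088; 0.40 after scaling; adjusted p = 0.045 with the 4 WT libraries alone in the fit). Ogdh, a subunit of the oxoglutarate dehydrogenase of the citric acid cycle, had 21.03 and 15.8 FPKM at MI, against 14.3 and 10.5 at GV (0.54 ± 0.30, adjusted p = 0.12; 1.69 and called after scaling). For Ogdh both MI libraries lay above both GV libraries. Ldhb, a lactate dehydrogenase subunit and one of the most abundant transcripts of these oocytes, had 3527 and 2392 FPKM at MI, against 3744 and 3891 at GV (-0.39 ± 0.33, adjusted p = 0.3; 0.87 and called higher after scaling), whereas the glycolytic gene Tpi1 had 1.75 and 1.20 FPKM at MI, against 42.98 and 55.7 at GV (-4.34 ± 0.26, adjusted p = 1.1e-09).

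Genes that degrade or fold proteins differed by list. Of 34 members among proteasome subunits 31 were lower (median -3.09, -1.84 after scaling), and 7 of 8 CCT chaperonin subunits were lower (median -2.32, -1.07 after scaling). HSP chaperones were lower in 15 of 19 cases (median -1.80, -0.58 after scaling, when 8 were lower and 2 higher). Autophagy genes were lower in 13 of 20 cases (median -0.94, -0.06 after scaling) and Usp deubiquitinases, which remove ubiquitin, in 19 of 40 (median -0.68, 0.16 after scaling), both shares below the 68.7% of all members. Psmb1 of the proteolytic core had 7.70 and 8.39 FPKM at MI, against 385 and 331 at GV (-5.31 ± 0.33, adjusted p = 1.4e-09), and Cct5 had 26.6 and 24.4 FPKM at MI, against 321 and 386 at GV (-3.74 ± 0.26, adjusted p = 3.5e-09). Psmd3 of the regulatory cap had 32.97 and 25.15 FPKM at MI, against 15.7 and 22.7 at GV, with both MI libraries above both GV libraries, but did not pass (0.59 ± 0.42, adjusted p = 0.23; 1.76 and called after scaling). Antioxidant and glutathione genes were lower in 18 of 20 cases (median -2.03, -0.93 after scaling). Among them Sod1, the cytosolic superoxide dismutase, had 169 and 118 FPKM at MI, against 1693 and 1656 at GV (-3.56 ± 0.37, adjusted p = 3.6e-07).

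**Figure D2:**
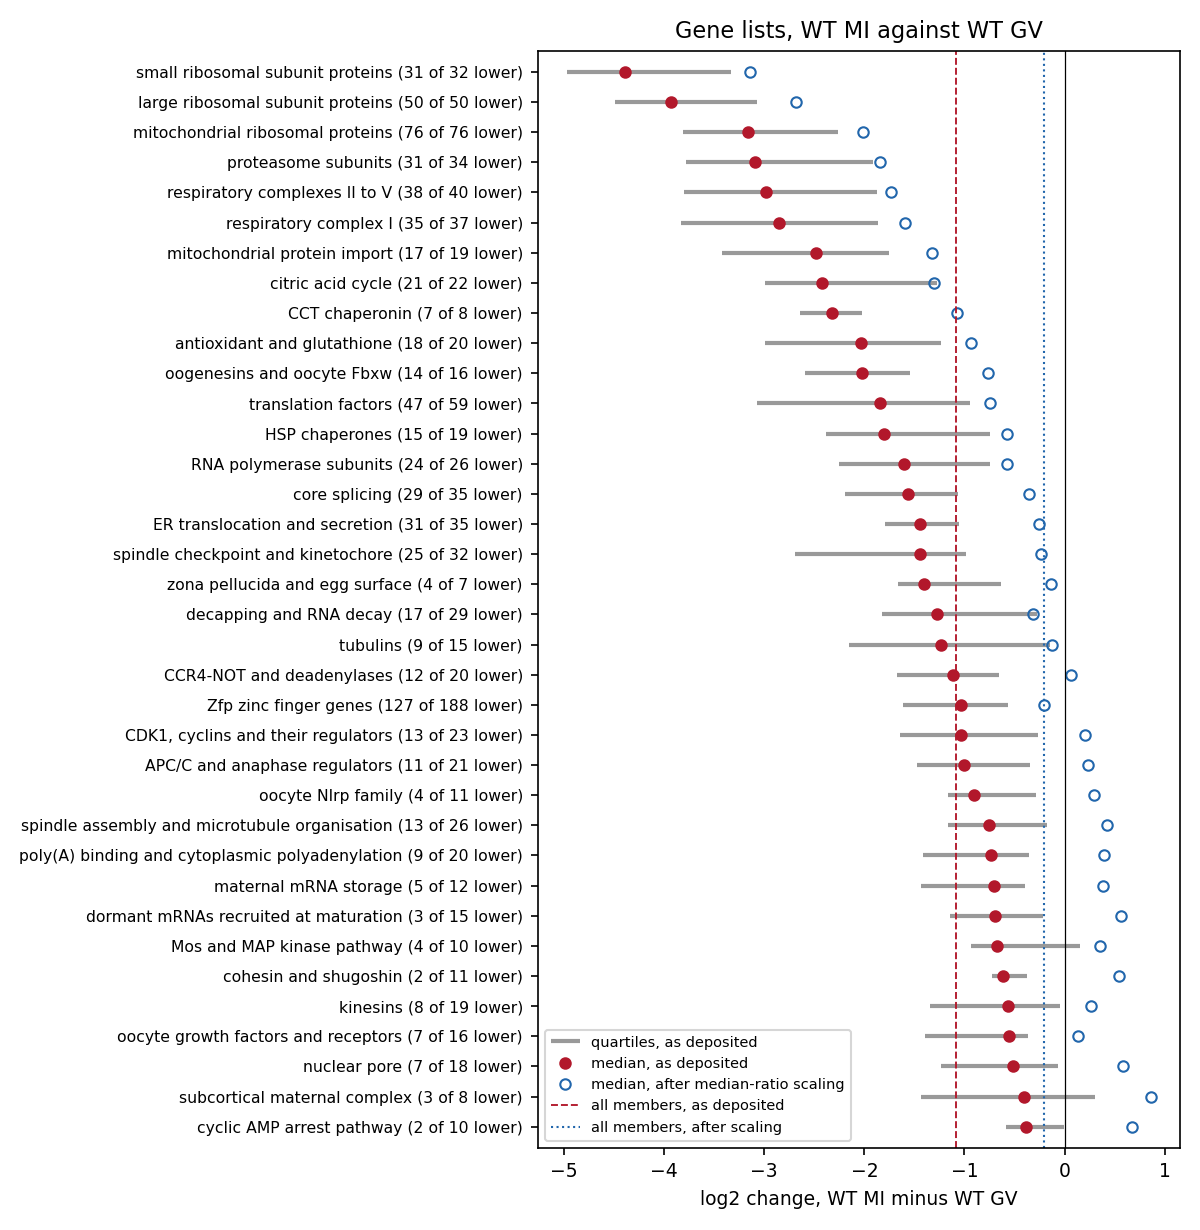
Filled points are the median log2 change (WT MI minus WT GV) of each gene list as deposited, with grey bars from the lower to the upper quartile of its members, and open points are the medians after median-ratio scaling; numbers in brackets give the members called lower. The ribosomal lists lie at -3.16 or below as deposited, far left of the dashed line of all members at -1.09, whereas the subcortical maternal complex and the cyclic AMP arrest pathway lie to its right and above 0 after scaling.

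In the plot of list medians the lists right of the dashed line were negative as deposited, and most of them turned positive after scaling. In all, 29 of 72 list medians changed sign under scaling.

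The lists for mRNA decay, poly(A) tails, storage and m6A had medians from -1.27 for decapping and RNA decay to -0.67 for the m6A machinery (4 of 14 lower), against -1.09 over all members. CCR4-NOT subunits and other deadenylase genes were lower in 12 of 20 cases, against 68.7% of all members (median -1.11, 0.06 after scaling, when 5 were lower and 3 higher, against 32.3% and 15.7% of all members). The CCR4-NOT module gene Cnot10 had 1.27 and 1.31 FPKM at MI, against 10.4 and 7.81 at GV (-2.13 ± 0.20, adjusted p = 1e-07), and Rqcd1, which encodes the conserved CNOT9 subunit, had 7.20 and 5.34 FPKM at MI, against 31.6 and 26.2 at GV (-2.05 ± 0.30, adjusted p = 1.5e-05). The scaffold gene Cnot1 was low at both stages, with 2.77 and 2.12 FPKM at MI, against 12.1 and 5.92 at GV (-1.47 ± 0.30, adjusted p = 0.00043; -0.42 and adjusted p = 0.094 after scaling).

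The catalytic subunits and the adaptor follow; differences between these genes were not tested. Cnot7, a catalytic subunit, had 94.4 and 66.2 FPKM at MI, against 163 and 99.6 at GV (-0.68 ± 0.63, adjusted p = 0.35; 0.57 after scaling). Its paralog Cnot8 had 71.8 and 51.8 FPKM at MI, against 76.3 and 69.5 at GV (-0.25 ± 0.26, adjusted p = 0.41; 0.99 and called higher after scaling). Cnot6l had 22.02 and 15.8 FPKM at MI, against 73.9 and 24.1 at GV, a wide spread between the GV libraries, and did not pass (-1.14 ± 0.65, adjusted p = 0.13; 0.08 after scaling), while it passed without WT GV replicate 2 (-1.93, adjusted p = 0.03) and with the 4 WT libraries alone in the fit (adjusted p = 0.0053). Btg4 was the most abundant gene of the list, with 1199 and 894 FPKM at MI, against 2489.9 and 2120.3 at GV, and was lower (-1.15 ± 0.32, adjusted p = 0.0048), while its change did not pass after scaling (0.11) or without WT MI replicate 3 (-0.94, adjusted p = 0.059). Pan2, the catalytic subunit of the PAN2-PAN3 deadenylase, had 19.5 and 13.8 FPKM at MI, against 12.6 and 7.88 at GV; its MI libraries lay above its GV libraries, but it did not pass (0.67 ± 0.29, adjusted p = 0.056). It passed after scaling (1.79), without WT GV replicate 1 (0.97, adjusted p = 0.028) and without WT MI replicate 3 (0.90, adjusted p = 0.046).

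Decapping and RNA decay genes were lower in 17 of 29 cases, a share below the 68.7% of all members (median -1.27, -0.31 after scaling). The exosome subunit gene Exosc4 had 2.61 and 2.19 FPKM at MI, against 33.6 and 34.2 at GV (-3.36 ± 0.24, adjusted p = 5e-09), while another exosome gene, Exosc2, had 26.5 and 27.9 FPKM at MI, against 18.35 and 20.5 at GV and did not pass (0.47 ± 0.39, adjusted p = 0.29; 1.65 and called higher after scaling). Poly(A) binding and polyadenylation genes were lower in 9 of 20 cases, also below it (median -0.73, 0.39 after scaling). Cpeb1, whose protein binds the CPE, had 111 and 85.2 FPKM at MI, against 165 and 103 at GV (-0.42 ± 0.32, adjusted p = 0.26; 0.83 and called higher after scaling), with overlapping groups. Pabpn1l, a nuclear-type poly(A) binding protein of the oocyte cytoplasm, had 206 and 144 FPKM at MI, against 484 and 415 at GV and was lower (-1.37 ± 0.35, adjusted p = 0.0024), though not after scaling (-0.11, adjusted p = 0.78).

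Among proteins that store maternal mRNA a pair of paralogs differed widely. Zar1l had 7.04 and 6.06 FPKM at MI, against 449 and 379 at GV (-5.78 ± 0.33, adjusted p = 8.4e-10). Its paralog Zar1, a maternal-effect gene, had 565 and 418 FPKM at MI, against 502 and 867 at GV, with overlapping groups (-0.44 ± 0.65, adjusted p = 0.57; 0.82 after scaling). Of the 12 genes of this list 5 were lower, against 68.7% of all members, Zar1l and the cold-shock protein genes Ybx1 (-2.12) and Ybx2 (-1.76, which did not pass after scaling at -0.55) among them (median -0.71, 0.38 after scaling).

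Genes known for the oocyte ranged from deep falls to none. In the subcortical maternal complex, a protein assembly under the oocyte membrane that the early embryo needs, 3 of 8 members were lower, against 68.7% of all members (median -0.40, 0.86 after scaling). Ooep had 224 and 173 FPKM at MI, against 1782 and 1927 at GV (-3.23 ± 0.47, adjusted p = 1.3e-05). Padi6 had 1414 and 1072 FPKM at MI, against 707 and 761 at GV (0.75 ± 0.44, adjusted p = 0.15). Ooep thus lay lower and Padi6 higher at MI in every pair of libraries, though only the change of Ooep passed as deposited. Nlrp5 had 234 and 149.9 FPKM at MI, against 189 and 127 at GV (0.27 ± 0.37, adjusted p = 0.52), Tle6 735 and 546 at MI, against 400.2 and 594 at GV (0.38 ± 0.51, adjusted p = 0.53), and Zbed3 1358 and 1175 at MI, against 969 and 1289 at GV (0.18 ± 0.41, adjusted p = 0.72). These 3 overlapped between the groups and did not pass, and after scaling they were called higher with Padi6.

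Secreted and surface proteins of the oocyte were also unequal. Gdf9, a growth factor that acts on cumulus cells, had 1676 and 1224 FPKM at MI, against 1947 and 1965 at GV and did not pass (-0.45 ± 0.32, adjusted p = 0.22; 0.81 after scaling). Its partner Bmp15 had 586 and 417 FPKM at MI, against 772 and 310.4 at GV (0.01 ± 0.64, adjusted p = 0.99; 1.27 and called higher after scaling). Gja4, the connexin of the oocyte's gap junctions with cumulus cells, had 28.8 and 22.2 FPKM at MI, against 274 and 327 at GV (-3.52 ± 0.37, adjusted p = 4.2e-07). Of these 3 genes Gja4 alone passed as deposited, and its groups were far apart.

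Among zona pellucida and egg surface genes 4 of 7 were lower, against 68.7% of all members (median -1.40, -0.14 after scaling). Zp3, a structural protein of the zona, had 1162 and 631 FPKM at MI, against 2159 and 2448 at GV (-1.42 ± 0.37, adjusted p = 0.0027). Its call was lost after scaling (-0.16, adjusted p = 0.77) and without WT MI replicate 3 (-0.98, adjusted p = 0.064). The oocyte transcription factor genes Figla (-2.54) and Nobox (-2.07), which drive gene expression in growing oocytes, were lower, with 43.96 and 46.4 FPKM for Nobox at MI, against 198 and 189 at GV (adjusted p = 2.4e-06). In the oogenesin and oocyte Fbxw families 14 of 16 members were lower (median -2.02, -0.76 after scaling), for example Fbxw15 with 153 and 119 FPKM at MI, against 1728 and 1019.5 at GV (-3.29 ± 0.59, adjusted p = 0.00013). These families hold close copies, which makes single values uncertain. H1foo, the linker histone of the oocyte, kept 3259.9 and 2460.5 FPKM at MI, against 3849.6 and 4639 at GV (-0.58 ± 0.47, adjusted p = 0.28; 0.69 after scaling).

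Regulators of meiosis were likewise divided within single complexes. Of 23 members among CDK1, cyclins and their regulators 13 were lower, against 68.7% of all members (median -1.03, 0.20 after scaling). Cdk1, the kinase of M phase, had 5.81 and 3.34 FPKM at MI, against 77.8 and 53.3 at GV (-3.59 ± 0.40, adjusted p = 7e-07). Its partner Ccnb1, the gene of cyclin B1, had 401 and 289 FPKM at MI, against 762 and 398 at GV (-0.69 ± 0.67, adjusted p = 0.37; 0.57 after scaling). The groups of Cdk1 were far apart and those of Ccnb1 overlapped. Ppp2ca, the catalytic subunit of the phosphatase PP2A, had 1.58 and 1.39 FPKM at MI, against 52.8 and 24.4 at GV (-3.90 ± 0.37, adjusted p = 1.1e-07).

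In the MOS and MAP kinase pathway 4 of 10 members were lower and 1 was higher, against 68.7% and 0.8% of all members (median -0.67, 0.35 after scaling). Mos had 328 and 250.2 FPKM at MI, against 438 and 609 at GV (-0.85 ± 0.50, adjusted p = 0.14; 0.41 after scaling), and Map2k1, the kinase gene that MOS acts on, had 112 and 82.2 FPKM at MI, against 71.8 and 57.25 at GV (0.58 ± 0.31, adjusted p = 0.11; 1.82 and called higher after scaling). Both MI libraries of Mos lay below its GV libraries and both of Map2k1 above, and neither gene passed as deposited. With the 4 WT libraries alone in the fit, Mos passed (adjusted p = 0.047).

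For the anaphase-promoting complex and its regulators, 11 of 21 members were lower as deposited, against 68.7% of all members, while 1 was lower and 7 were higher after scaling (median -1.005 and 0.24). Anapc7, a subunit, had 2.97 and 1.94 FPKM at MI, against 14.3 and 14.5 at GV (-2.17 ± 0.27, adjusted p = 2.1e-06), and Pttg1, the gene of securin, had 3748 and 2431 FPKM at MI, against 4342 and 4286 at GV (-0.52 ± 0.39, adjusted p = 0.26; 0.75 and called higher after scaling). Pttg1 was among the most abundant transcripts at both stages. Of 11 members among cohesin and shugoshin genes, whose proteins hold sister chromatids together, 2 were lower (median -0.62, 0.54 after scaling). Kinetochore and checkpoint genes were lower in 25 of 32 cases, against 68.7% of all members (median -1.45, -0.24 after scaling, when 11 were lower and 5 higher), for example Spc25 with 5.79 and 4.78 FPKM at MI, against 142 and 70.4 at GV (-4.01 ± 0.73, adjusted p = 0.00015). The checkpoint kinase gene Bub1b overlapped between groups, with 159 and 113 FPKM at MI, against 156 and 104 at GV (0.08 ± 0.35, adjusted p = 0.86; 1.33 and called higher after scaling).

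Spindle genes differed even between isotypes. Tubb4b, a beta-tubulin, had 47.4 and 39.25 FPKM at MI, against 553 and 668 at GV (-3.79 ± 0.27, adjusted p = 5.2e-09). Tubb2a, another beta-tubulin, had 184 and 127 FPKM at MI, against 63.00 and 94.9 at GV, with both MI libraries above both GV libraries, and did not pass (0.97 ± 0.46, adjusted p = 0.071; 2.22 and called higher after scaling), though it passed with the 4 WT libraries alone in the fit (adjusted p = 0.018). Tubulin genes are close copies, so these values carry the same doubt as those of ribosomal proteins. Kif22, a chromosome-binding kinesin, had 6.43 and 4.98 FPKM at MI, against 108 and 136 at GV (-4.20 ± 0.28, adjusted p = 2.6e-09), while Kif20a, a kinesin of the late spindle, had 29.9 and 21.45 FPKM at MI, against 9.38 and 11.7 at GV and was higher (1.20 ± 0.36, adjusted p = 0.0072). Kif20a did not pass without WT GV replicate 1 (1.05, adjusted p = 0.059) or without WT MI replicate 2 (0.97, adjusted p = 0.066). Of 19 kinesin members 8 were lower, against 68.7% of all members, and Kif20a was the 1 higher (median -0.57, 0.26 after scaling).

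**Figure D3:**
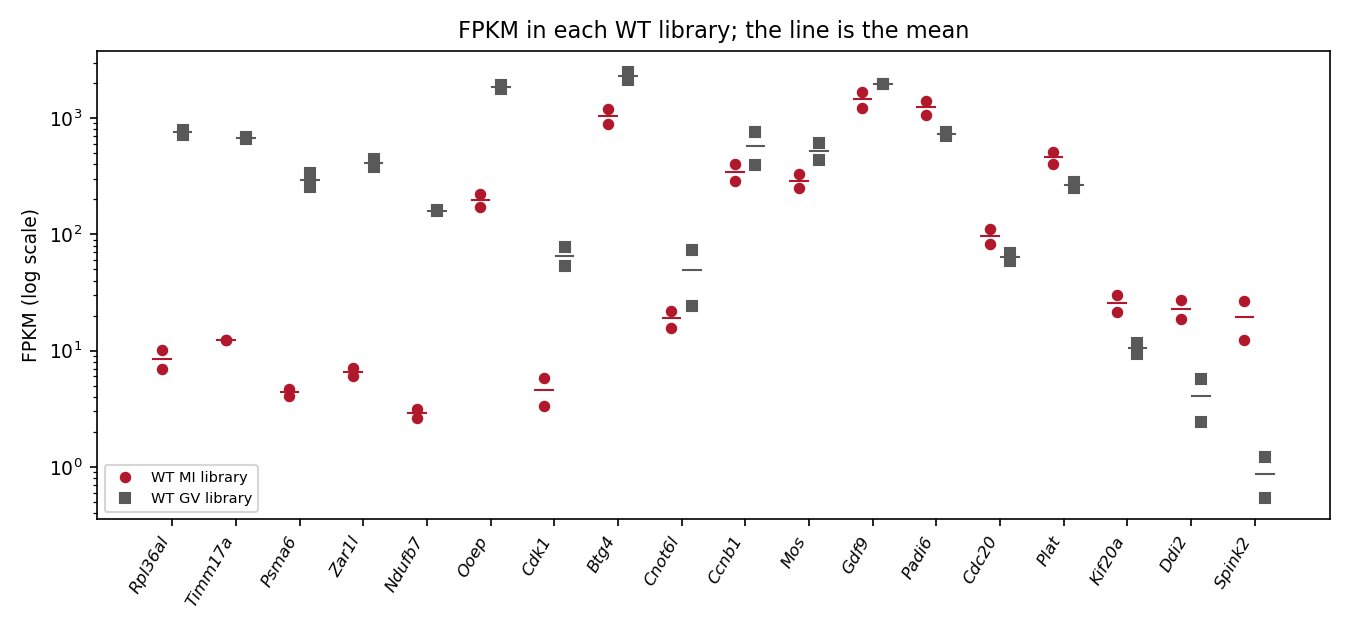
FPKM (log scale) of 18 genes in each WT MI library (circles) and each WT GV library (squares), with a line at each mean. From left to right the genes pass from deep falls such as Rpl36al and Timm17a, through genes with smaller falls such as Ccnb1, Mos and Gdf9, to those higher at MI such as Kif20a, Ddi2 and Spink2.

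The plot of single libraries shows that replicates lay close together beside these differences, apart from Cnot6l, Ccnb1 and Ddi2 at GV and Spink2 at both stages. Over the 10884 genes tested the correlation of log2 values between replicates was 0.9922 at MI and 0.9643 at GV, as a description across genes, which are not independent.

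The members called higher were few, and most were of low abundance at GV. Spink2, a serine protease inhibitor gene (chromosome 5, 77634133 to 77640478, minus strand, mm9), had 26.5 and 12.3 FPKM in the MI libraries, against 1.21 and 0.54 in the GV libraries (3.37 ± 0.66, adjusted p = 0.00026). Ddi2, which encodes a ubiquitin-dependent protease, had 27.2 and 18.6 FPKM at MI, against 2.44 and 5.75 at GV (2.28 ± 0.40, adjusted p = 0.0001). Dtx2, a ubiquitin ligase of the Deltex family, had 124 and 97.8 FPKM at MI, against 41.4 and 46.65 at GV (1.31 ± 0.47, adjusted p = 0.023). All MI libraries of these genes were above their GV libraries.

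Further members of this group were Fpgs, folylpolyglutamate synthase, with 82.1 and 64.6 FPKM at MI, against 29.5 and 33.85 at GV (1.18 ± 0.43, adjusted p = 0.025), and the RNA-binding protein gene Bicc1 with 13.8 and 11.2 FPKM at MI, against 4.87 and 5.14 at GV (1.16 ± 0.19, adjusted p = 5.6e-05). Troap, which encodes a spindle-associated protein, had 28.97 and 22.1 FPKM at MI, against 7.07 and 12.6 at GV (1.33 ± 0.48, adjusted p = 0.021). Heatr2 (1.04) and Lrrc16a (1.002) were also called. Dtx2, Fpgs and Troap lost their call without WT GV replicate 1 (1.22, 1.08 and 0.96) and without WT MI replicate 2 (1.14, 1.01 and 1.14), and Heatr2 and Lrrc16a without WT GV replicate 2 (0.84 and 0.65) and without WT MI replicate 2 (0.83 and 0.74). All 77 were called higher after scaling too. Their number depended on single libraries, being 22 without WT MI replicate 2 and 43 without WT GV replicate 2.

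Stored mRNAs that are recruited for translation during maturation formed a separate list of 15 members. As deposited 3 were lower and 0 higher, against 68.7% and 0.8% of all members, and after scaling 1 was lower and 6 were higher, against 32.3% and 15.7% (median -0.69 and 0.57). Plat, tissue plasminogen activator, whose mRNA is a textbook case of cytoplasmic polyadenylation in mouse oocytes, had 516 and 405 FPKM at MI, against 279.7 and 249 at GV. Both MI libraries lay above both GV libraries, but Plat did not pass (0.79 ± 0.41, adjusted p = 0.095; 2.05 and called after scaling). Slbp, the binding protein of histone mRNA stem-loops, had 938 and 676 FPKM at MI, against 1303 and 1069 at GV (-0.57 ± 0.41, adjusted p = 0.23; 0.70 and called higher after scaling). The 3 lower members were Cdc6, Btg4 and the decapping enzyme gene Dcp2 (-1.38 ± 0.40, adjusted p = 0.0064), which did not pass after scaling (-0.48) or without WT GV replicate 1 (-1.10, adjusted p = 0.072). Cdc6, a replication licensing factor, had 0.80 and 0.42 FPKM at MI, against 9.28 and 7.36 at GV (-2.54 ± 0.23, adjusted p = 7.7e-08). It was a member through GV alone, so it had to be lower at MI.

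The CPE motif was searched on the sense strand as TTTTAT or TTTTAAT in the last 150 bases of annotated 3′ UTRs of at least 150 bases (gencode vM1 on mm9, the build of the deposited table). Sites of 7 genes are printed 5′ to 3′ on the transcribed strand with the motif in capitals, to show the element in mRNAs that were called higher at MI or did not pass; they were picked for holding it, with their changes known. Such mRNAs without the motif also occurred, among them Spink2, Heatr2, Padi6, Tpx2, Tex19.1 and Slbp, and Btg4 had 2 motifs and was lower. Of 14 genes of the dormant list with such a UTR 7 held the motif. A match is a description of these letters and not a measured binding site.
Plat: tatttataTTTTAATctatttta
Bub1b: actgtgtaTTTTATaataaaat
Ccnb1: atttgctgTTTTAATttatacat
Cnot7: aaggtacaTTTTATatcaataa
Fpgs: cttttattTTTTATtttttgta
Dtx2: acctcagaTTTTATttgcaata
Zbed3: taataaacTTTTATttatctgc
They lie at chr8:23893220-23893242 on the plus strand for Plat, chr2:118467293-118467314 plus for Bub1b, chr13:101548734-101548756 minus for Ccnb1, chr8:41578396-41578417 minus for Cnot7, chr2:32538154-32538175 minus for Fpgs, chr5:136508699-136508720 plus for Dtx2 and chr13:96107775-96107796 plus for Zbed3, each inside the gene as the table bounds it.

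Of 3570 matched members at 10 FPKM or more in GV with such a UTR, 27.28% held the motif. Its share was 31 of 163 (19.02%) among genes with a change under -4, 69 of 404 (17.08%) from -4 to -3 and 160 of 785 (20.38%) from -3 to -2. It was 299 of 1095 (27.31%) from -2 to -1, 303 of 889 (34.08%) from -1 to 0 and 112 of 234 (47.86%) at 0 or more. Genes kept at or above their GV level thus held the motif more than 2 times as often as those with the deepest falls. The 3′ ends themselves differed between these bins, since the polyadenylation hexamer AATAAA or ATTAAA stood in the last 50 bases of the UTR for 62.58% of genes under -4 and 88.46% at 0 or more. The part of this difference in the motif shares was not tested. Among all members, 28 of the 67 called higher that had such a UTR held it (41.79%), beside 2121 of 7937 members in all (26.72%). Deep falls with the motif also occurred, for example Ppil3, a cyclophilin of the spliceosome, with 2.05 and 1.32 FPKM at MI, against 169 and 83.8 at GV (-5.50 ± 0.46, adjusted p = 2.7e-08).

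The median change was -1.18 over the 974 genes with the motif and -1.72 over the 2596 without it, and 60.99% and 76.69% of them were called lower. After scaling the medians were 0.01 and -0.56. Genes with 1 motif had a median of -1.23 (772 genes), those with 2 a median of -1.07 (168 genes) and those with 3 or more a median of -0.73 (34 genes). The difference was present on both sides of the median length of 2044.5 bases. Shorter transcripts had a median of -1.60 with the motif (376 genes) and -2.29 without it (1169 genes), and longer ones -0.96 with it (598 genes) and -1.34 without it (1427 genes). In Cnot6l-/- oocytes the medians with and without the motif were -0.41 and -0.46, and in libraries labelled Btg4-/- they were -0.12 and -0.16.

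Transcript length ran with the change. The 4236 matched members at 10 FPKM or more in GV were split by length into 5 groups of like size. Among the shortest, from 285 to 1173 bases, the median change was -2.61 and 91.65% were called lower. In the groups between them the medians were -2.21 (1175 to 1750 bases), -1.62 (1752 to 2442) and -1.29 (2443 to 3450), and among the longest, from 3451 to 12794 bases, the median was -1.05 with 54.43% called lower. Spearman's correlation of the WT change with length across genes was 0.41, given with no p since genes share their libraries. Across the same genes it was 0.51 for the Cnot6l-/- change and 0.43 for the change in libraries labelled Btg4-/-. Short transcripts were also more abundant, with a median of 89.2 FPKM at GV in the shortest group, against 45.3, 31.3 and 24.1 in the groups that follow it in length. The part of abundance in the relation to length was not tested. The shortest group had the lowest median in the other genotypes too, where its medians were -1.02 in Cnot6l-/- and -0.52 in libraries labelled Btg4-/-, and those of the longest -0.02 and -0.07.

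**Figure D4:**
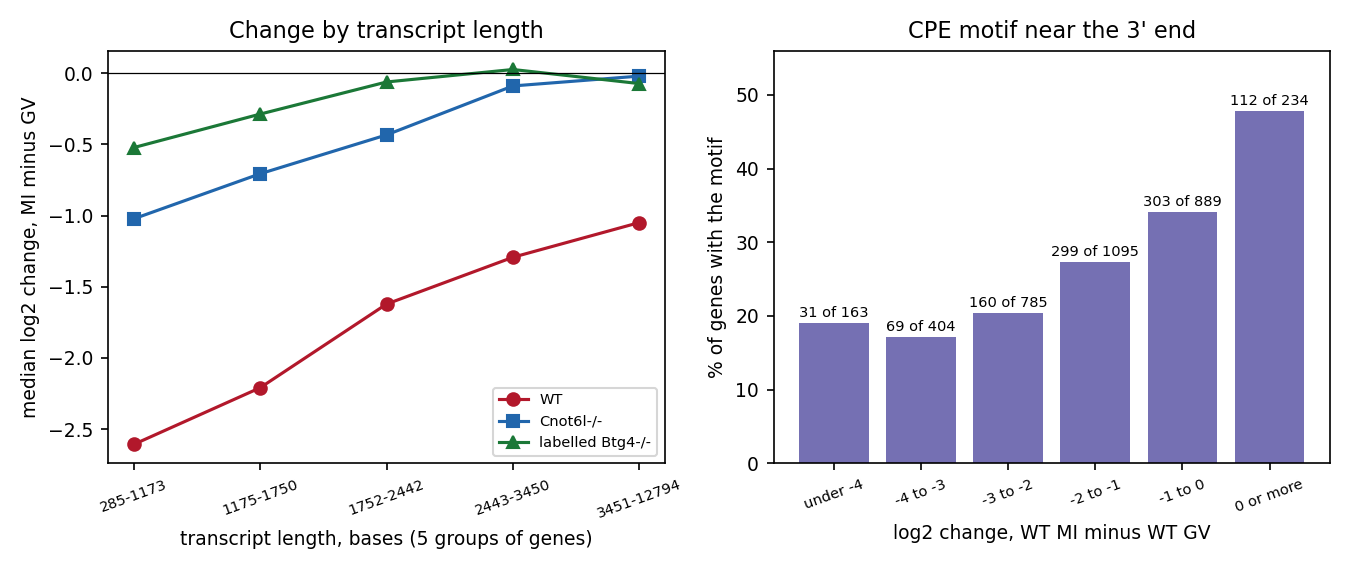
Left, the median log2 change (MI minus GV) within WT, Cnot6l-/- and libraries labelled Btg4-/- over 5 groups of genes by transcript length in bases; right, the percentage of genes with a CPE motif in the last 150 bases of the 3′ UTR, by log2 change in WT, with the counts above the bars. Falls were largest in the shortest group in all 3 genotypes, and the motif share was 47.86% in the bin at 0 or more, against 19.02% in the bin under -4.

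The plots by length and by motif share cover only genes at 10 FPKM or more in GV, where a change can be read over a wide range. In each length group the WT median was the lowest of the 3 genotypes.

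The WT fall was set against the same step in the other genotypes. Cnot6l itself had 22.02 and 15.8 FPKM at MI and 73.9 and 24.1 at GV in WT, against 4.11 and 5.19 at MI and 5.92 and 4.30 at GV in Cnot6l-/-, so it was low in all 4 Cnot6l-/- libraries. Btg4 had 1199 and 894 FPKM at MI and 2489.9 and 2120.3 at GV in WT, against 1464 and 1613 at MI and 1641 and 2515 at GV in libraries labelled Btg4-/-. Its transcript was thus not low in those libraries, and since the allele is not described this does not check the label. The median change over the WT members was -1.09 in WT, against -0.17 in Cnot6l-/- and -0.11 in libraries labelled Btg4-/-. The median difference of changes was -0.94 for WT minus Cnot6l-/- and -1.0002 for WT minus the libraries labelled Btg4-/-.

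By the test of the difference itself, 4465 members fell more in WT than in Cnot6l-/- (46.4%, against 44.4% of all genes tested) and 14 changed upward relative to it (0.145%, against 0.459%). Against the libraries labelled Btg4-/-, 4682 fell more in WT (48.6%, against 45.4% of all genes tested) and 14 changed upward relative to them (0.145%, against 0.175%). Both differences use the same WT libraries and are not independent of each other. After scaling 1792 and 1774 members fell more in WT, and 228 and 454 changed upward. The upward counts also moved with single libraries. For WT minus Cnot6l-/- the count was 5 without WT MI replicate 2, 22 without WT GV replicate 1 and 6 without WT GV replicate 2. For WT minus the libraries labelled Btg4-/- it was 8 without WT MI replicate 2 and 24 without WT GV replicate 1. The WT change correlated across members with the Cnot6l-/- change at 0.61 and with the change in libraries labelled Btg4-/- at 0.49, as a description across genes.

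Rpl36al showed one of the widest gaps. Its MI libraries had 10.1 and 6.99 FPKM in WT, against 256 and 233 in Cnot6l-/- and 302 and 339 where labelled Btg4-/-. Its GV libraries had 718 and 791 FPKM in WT, against 716 and 884 in Cnot6l-/- and 559.5 and 1080.3 where labelled Btg4-/-. The WT change minus the Cnot6l-/- change was -4.62 ± 0.43 (adjusted p = 1.8e-06), and minus the change in libraries labelled Btg4-/- it was -5.05 ± 0.43 (adjusted p = 9.4e-07). Ndufb7 had 3.17 and 2.65 FPKM in WT MI libraries, against 94.7 and 95.7 in Cnot6l-/- MI libraries (-4.46 ± 0.33, adjusted p = 6.7e-07). For both genes the Cnot6l-/- MI libraries lay far above the WT MI libraries.

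For some genes the WT fall had little counterpart in Cnot6l-/-. Bcar3, an adaptor of integrin signalling, had 4.75 and 3.20 FPKM at MI, against 67.9 and 42.1 at GV in WT, and 79.3 and 95.2 at MI, against 36.2 and 58.7 at GV in Cnot6l-/- (-4.37 ± 0.44, adjusted p = 2.9e-06). Lgmn, the lysosomal protease legumain, had 0.85 and 0.87 FPKM at MI, against 37.9 and 31.4 at GV in WT, and 17.4 and 17.75 at MI, against 15.2 and 17.3 at GV in Cnot6l-/- (-4.36 ± 0.38, adjusted p = 1.6e-06). The transcription factor gene Irf1 had 0.94 and 0.86 FPKM at MI, against 44.6 and 46.4 at GV in WT, and 46.5 and 54.95 at MI, against 55.6 and 67.8 at GV in Cnot6l-/- (-4.34 ± 0.37, adjusted p = 1.6e-06). In Cnot6l-/- both MI libraries lay above both GV libraries for Bcar3 and Lgmn and below them for Irf1. Lgmn and Irf1 were members through WT GV alone, so they had to be lower at WT MI.

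Psma6, a proteasome core subunit, had 4.72 and 4.04 FPKM at MI and 339 and 254 at GV in WT, against 110.2 and 128 at MI and 139 and 256 at GV in libraries labelled Btg4-/- (-5.12 ± 0.69, adjusted p = 2.3e-05). Zar1l had 7.04 and 6.06 FPKM in WT MI libraries, against 205 and 224 in MI libraries labelled Btg4-/- (-4.98 ± 0.47, adjusted p = 1.2e-06). The largest difference, -5.89 ± 0.46 for the TRIM family gene Trim15 (adjusted p = 7.8e-07), goes with unlike GV levels. Trim15 had 3.74 and 2.25 FPKM at MI, against 127 and 138 at GV in WT, but 20.8 and 37.35 at MI, against 15.01 and 16.15 at GV in libraries labelled Btg4-/-.

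Among lists, 25 of 32 small ribosomal subunit genes fell more in WT than in Cnot6l-/- and 27 more than in libraries labelled Btg4-/-, with medians of -4.39 in WT, -1.15 in Cnot6l-/- and -0.66 in libraries labelled Btg4-/-. For mitochondrial ribosomal proteins the counts were 65 and 70 of 76, for complex I 22 and 28 of 37, and for proteasome subunits 25 and 27 of 34. The shares over all members were 46.4% and 48.6%. Among lists with WT medians nearer to 0, the counts were 1 and 2 of 15 in the dormant list, 2 and 3 of 8 in the subcortical maternal complex, 9 and 8 of 19 for coatomer and COPII and 18 and 16 of 33 for DNA repair. Oogenesins and oocyte Fbxw genes fell more in WT than in Cnot6l-/- in 2 of 16 cases and more than in libraries labelled Btg4-/- in 6, with medians of -2.02, -1.06 and -0.35 in WT, Cnot6l-/- and libraries labelled Btg4-/-. Cdk1 fell more in WT than in both (-2.39 ± 0.56, adjusted p = 0.0025, and -3.37 ± 0.56, adjusted p = 0.00015).

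Of the 77 members higher at WT MI, 10 changed upward relative to Cnot6l-/- and 12 relative to libraries labelled Btg4-/-, against 0.145% of all members in each case. The 77 were chosen for a high change in the same WT libraries, which favours upward differences, so these counts and the values of Spink2 are descriptions. Plat had 586 and 579 FPKM at MI, against 331 and 396 at GV in Cnot6l-/- (0.10 ± 0.57, adjusted p = 0.9). Spink2 stood apart, with 0.54 and 0.93 FPKM at MI, against 2.55 and 1.93 at GV in Cnot6l-/- (difference of changes 4.28 ± 0.93) and 0.45 and 1.22 at MI, against 0.77 and 2.78 at GV in libraries labelled Btg4-/- (difference of changes 3.90 ± 0.93). WT MI libraries were thus the only ones of these 12 with more than 3 FPKM of Spink2.

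**Figure D5:**
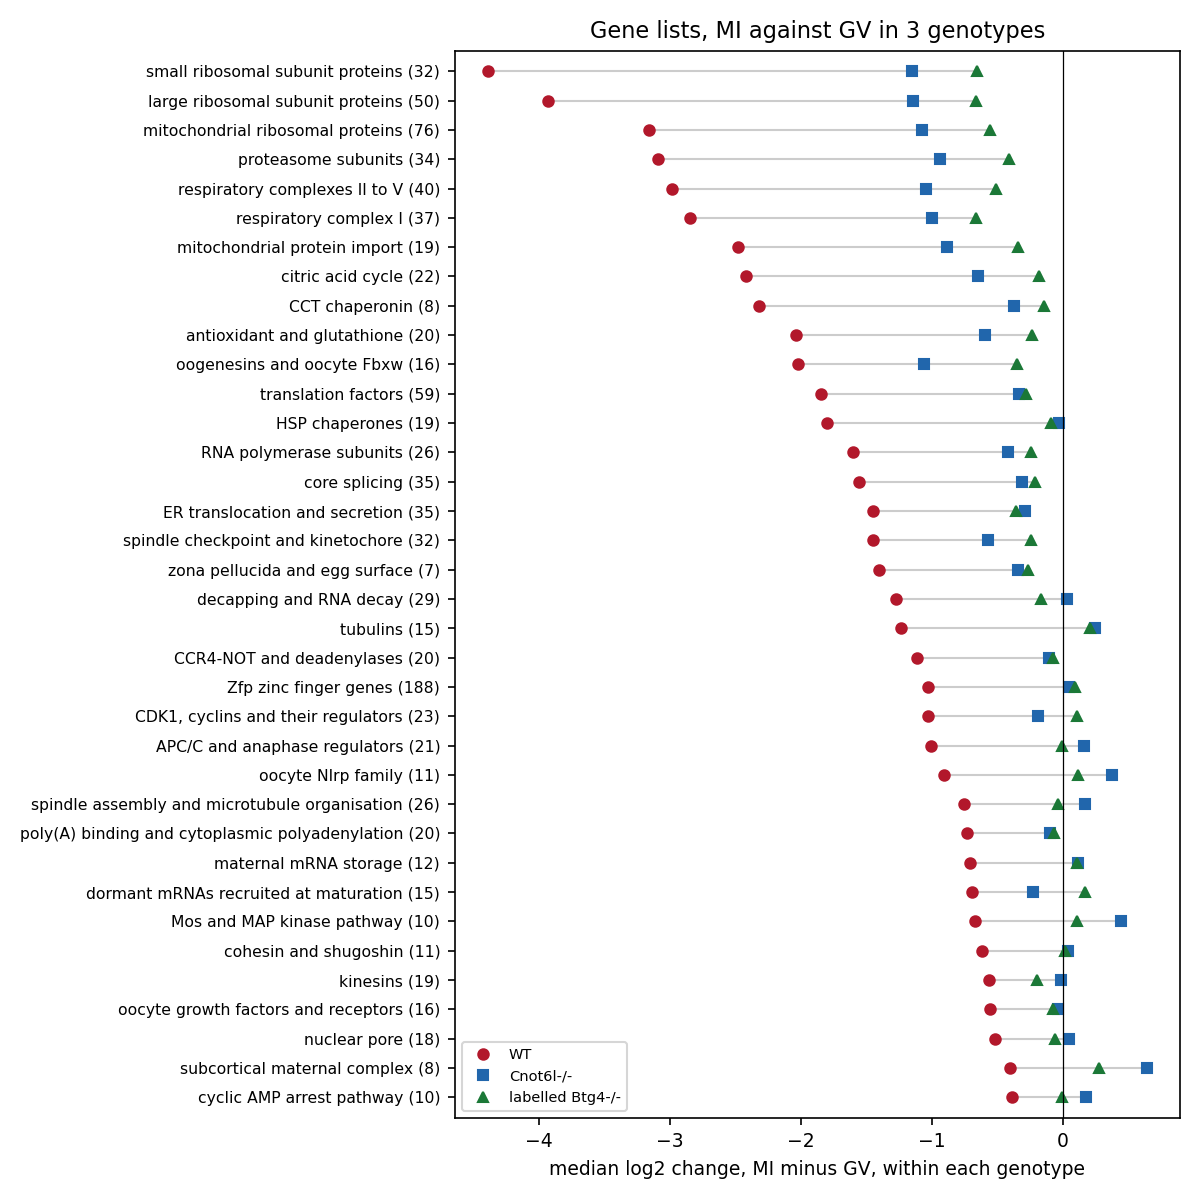
Median log2 change (MI minus GV) of each gene list within WT (circles), Cnot6l-/- (squares) and libraries labelled Btg4-/- (triangles), with the number of members in brackets. The WT median is the lowest of the 3 in every list shown, with a wide gap for ribosomal proteins, where WT lies at -4.39, Cnot6l-/- at -1.15 and libraries labelled Btg4-/- at -0.66 for the small subunit.

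In the plot of list medians by genotype the ribosomal and respiratory lists lie at the low end in Cnot6l-/- and in libraries labelled Btg4-/- too, and several lists of meiosis and oocyte proteins lie at or above 0 there.

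Most markers of other cell types were under 1 FPKM. Of 21 cumulus and granulosa cell markers 4 were members. Of these, Inha, Gja1 and Nr5a2 were lower at MI (3 of 4, against 68.7% of all members). All 3 were members through GV alone, so they had to be lower at MI and their p-values are descriptions. Inha, a subunit of inhibin, had 0 and 0.03 FPKM at MI, against 5.72 and 4.33 at GV (-2.56 ± 0.26, adjusted p = 2.2e-07), and Gja1, the connexin of cumulus cells, had 0.01 and 0 FPKM at MI, against 3.84 and 1.08 at GV (-1.66 ± 0.28, adjusted p = 6.6e-05). Cyp19a1, the aromatase gene, had 8.16 and 5.92 FPKM at MI, against 10.7 and 10.4 at GV and did not pass (-0.54 ± 0.28, adjusted p = 0.097; 0.57 and called higher after scaling). Foxl2, Ptx3, Areg and Ereg of this list were at 0 in all 4 libraries. Of theca and stromal cell markers 0 of 10 were members, and 1 of 11 blood and immune markers was a member. The part of cumulus RNA in the falls was not tested. All 14 oocyte markers were members, and 6 of them were lower, against 68.7% of all members. Their FPKM lay between 7.29 (Figla) and 3260 (H1foo) in the MI libraries, against 24.5 (Kit) and 4639 (H1foo) in the GV libraries.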

How the data were processed

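The authors deposited FPKM per gene for 24 libraries of 3 genotypes at 4 stages, made with CASAVA 1.8, TopHat2 2.0.11, Bowtie2 2.1.0 and Cufflinks 2.2.1 on mm9, per the submitters' processing notes. The scaling of FPKM between libraries is not stated in the labels, and precision rests on the spread between 2 libraries a group, since depth is unknown. MI columns are numbered 2 and 3 but titled 1 and 2, so they were assigned to groups only.

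log2(FPKM + 1) of the 10884 genes at 1 FPKM or more in at least 1 of 12 groups was modelled in limma 3.58.1 under R 4.3.3 (1 mean per group, eBayes with a trend), with two-sided moderated tests and Benjamini-Hochberg adjustment over these genes. Genes at an adjusted p under 0.05 were called. Differences between genotypes were contrasts in the same fit. The fit was tested on simulated data. Smart-Seq2 libraries carry no strand, so overlapping antisense genes cannot be told apart.

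Members, the 73 gene lists and the motifs were chosen with earlier results of these data known, so list counts and medians are descriptions. Genes named are the 15 lowest and 10 highest called members, the 10 most abundant of each group, the 2 lowest and 2 highest of each list, the 8 extreme members each way per genotype difference, and members of lists of at most 24 genes; the text gives a subset, and some results are not reported here. Ppil3 and others among the 15 lowest were looked up for the motif after their changes were known. Alternatives were a pseudocount of 0.1, no filter, a filter of 5 FPKM, median-ratio scaling, only the libraries compared, the library number as a block and each WT library left out in turn. Where a library was left out, the remaining one took its spread from the other groups. Python 3.11.15 with numpy 2.4.6, pandas 2.3.3, scipy 1.17.1 and matplotlib 3.10.9 was used. Tables of single libraries were not used.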

Additional observations from a re-analysis of the deposited data

Results flagged for a closer look

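The MI versus GV change was tested for a difference between WT and the other genotypes. It was lower in WT than in Cnot6l-/- for 4465 members and higher for 14, and lower in WT than in libraries labelled Btg4-/- for 4682 members and higher for 14. Among the widest differences of WT minus Cnot6l-/- on the log2 scale were -4.62 for Rpl36al, -4.46 for Ndufb7, -4.37 for Bcar3, -4.36 for Lgmn, -4.34 for Irf1, -4.33 for Rps9 and -4.33 for Fam162a. For WT minus the libraries labelled Btg4-/- they were -5.89 for Trim15, -5.12 for Psma6, -5.05 for Rpl36al, -4.98 for Zar1l, -4.90 for Eif3m, -4.84 for Fcf1, -4.78 for Sdhd and -4.77 for Rpl24.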

How the results depend on the processing

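Median-ratio scaling moved the results most. It gave 2990 members lower and 1456 higher, 1792 and 228 with a lower and a higher change than in Cnot6l-/-, 1774 and 454 with a lower and a higher change than in libraries labelled Btg4-/-, and a median change of -0.21. It also turned the sign of Btg4 (0.11), Cnot6l (0.077), Cnot7 (0.57), Cnot8 (0.99), Ccnb1 (0.57), Cox6a1 (0.40), Cpeb1 (0.83), Cyp19a1 (0.57), Gdf9 (0.81), H1foo (0.69), Ldhb (0.87), Mos (0.41), Pttg1 (0.75), Rps2 (0.43), Slbp (0.70) and Zar1 (0.82), all relative to the genes used for scaling. A filter of 5 FPKM kept fewer genes and gave 51 higher members, 6 and 5 with a higher change than in Cnot6l-/- and in libraries labelled Btg4-/-, and a median of -1.37. A pseudocount of 0.1 gave 4 and 8 such members and a median of -1.54, and no filter gave 8 against Cnot6l-/-. With each WT library left out in turn, lower members numbered 5085 to 7159 and higher ones 22 to 87. Members with a higher change in WT numbered 5 to 22 against Cnot6l-/- and 8 to 24 against libraries labelled Btg4-/-. The change of Bmp15 ranged from -0.64 to 0.67, that of Bub1b from -0.21 to 0.37, that of Nlrp5 from -0.046 to 0.59 and that of Zbed3 from -0.029 to 0.38. With the library number as a replicate block (the MI numbers apart from those of the other stages) 7182 members were lower and 110 higher, and with only the 4 libraries compared 6617 and 79. Mos, Cox6a1, Cnot6l, Tubb2a and Rps2 passed under both. The numbers were not taken to pair MI with GV samples, since MI columns are numbered unlike their titles. Low genes are limited by the 2 decimals of FPKM and by the unknown depth. The cause of these moves was not tested.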
